A study of Mus musculus with 47 samples.

Results

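The transcripts of 10 sugar and solute carrier genes of the kidney tubule were followed across 47 mouse kidney RNA-seq libraries. They were the sodium-coupled carriers Slc5a1, Slc5a2, Slc5a8, Slc5a10, Slc5a11 and Slc5a12 and the facilitative carriers Slc2a1, Slc2a2, Slc2a4 and Slc2a9, taken by gene symbol from the 22474 genes of the deposited count table. All 10 were among the 18786 genes that passed the filter on low counts. The libraries held polyadenylated RNA of wild-type mice of the inbred strains NZO/HlLtJ, C57BL/6J and CAST/EiJ, labelled with no treatment beyond the diet. In each strain there were females and males on feed labelled 10% fat + fiber or 44% fat + fiber, and the 44% feed is read here as the diet high in fat and sugar that the labels' protocol names without its fat content, the other being the control. Feeding began at 6 weeks of age and the organ, labelled metanephros, was taken at 15 weeks. Each of the 12 groups held 4 libraries except CAST/EiJ males on 10% fat, which held 3. The labels do not say that the libraries came from separate animals, so a p-value speaks of the spread among these libraries, which may be technical. C57BL/6J is the common laboratory strain, CAST/EiJ is wild-derived, and NZO/HlLtJ is a polygenic strain known for obesity and diabetes.

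Glucose filtered at the glomerulus is taken back by proximal tubule cells in a relay. A sodium-coupled carrier of the Slc5 family lifts it from the urine side into the cell, driven by the sodium gradient that the sodium pump maintains, and a facilitative carrier of the Slc2 family lets it out toward the blood. Slc5a2 (SGLT2) is the high-capacity carrier of the early proximal tubule and the target of the gliflozin drugs, and Slc5a1 (SGLT1) is the high-affinity carrier farther along. Slc2a2 (GLUT2) and Slc2a1 (GLUT1) serve the blood side of the early and later segments. Of the other members, Slc5a10 (SGLT5) carries mannose and fructose, Slc5a11 carries myo-inositol and glucose, Slc5a8 and Slc5a12 carry lactate and other monocarboxylates, Slc2a4 (GLUT4) is the insulin-responsive carrier, and Slc2a9 carries urate. The group therefore holds carriers that are not known for glucose, and whole-kidney RNA does not show from which cells a transcript came.

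The promoters of 4 members are printed because the results turn on them: Slc5a10 and Slc2a2 were the members with the largest rise on 44% fat, and Slc5a8 and Slc5a1 differed between the sexes in opposite directions. Each is the 250 bases before the RefSeq gene start in the GRCm38.p6 table, read 5′ to 3′ on the gene's own strand, from chr11:61720800-61721049 (minus strand), chr3:28697653-28697902 (plus), chr10:88885742-88885991 (plus) and chr5:33103969-33104218 (plus). Capitals mark matches, on either strand, to the E-box CACGTG or the androgen or glucocorticoid receptor half-site AGAACA.
Slc5a10: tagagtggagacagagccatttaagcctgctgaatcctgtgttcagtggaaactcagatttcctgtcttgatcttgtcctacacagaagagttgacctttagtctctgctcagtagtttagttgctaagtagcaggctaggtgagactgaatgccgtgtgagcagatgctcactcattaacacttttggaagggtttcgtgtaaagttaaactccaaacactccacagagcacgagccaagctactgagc
Slc2a2: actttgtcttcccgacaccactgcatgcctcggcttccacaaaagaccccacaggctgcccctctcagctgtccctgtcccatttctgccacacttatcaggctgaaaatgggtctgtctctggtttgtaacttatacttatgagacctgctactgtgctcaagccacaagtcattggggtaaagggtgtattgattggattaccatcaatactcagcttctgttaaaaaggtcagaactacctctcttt
Slc5a8: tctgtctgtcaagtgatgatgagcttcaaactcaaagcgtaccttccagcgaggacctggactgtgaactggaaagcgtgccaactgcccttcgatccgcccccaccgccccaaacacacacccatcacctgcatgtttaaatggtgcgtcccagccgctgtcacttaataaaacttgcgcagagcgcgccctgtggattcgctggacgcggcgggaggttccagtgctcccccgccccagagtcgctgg
Slc5a1: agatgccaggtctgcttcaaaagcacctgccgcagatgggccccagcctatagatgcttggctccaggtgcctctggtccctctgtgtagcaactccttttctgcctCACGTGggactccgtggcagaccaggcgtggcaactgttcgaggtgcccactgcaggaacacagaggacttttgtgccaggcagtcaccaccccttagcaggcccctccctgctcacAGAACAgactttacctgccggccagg
The table held starts for 7 members, at 8 positions, Slc5a10 having 2, and no start for Slc5a2, Slc5a12 or Slc2a4. In these 8 windows there were 2 matches, both in Slc5a1, which had CACGTG 143 bases and AGAACA 26 bases before its start. Of 32851 promoters of the same length, 6.02% held CACGTG and 16.1% AGAACA. A match describes letters and not binding.

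Levels are in CPM (counts per 1 M), the deposited expected count of a gene relative to its library's total after TMM scaling, and per-replicate values below are in the order of replicates 1 to 4. Total counts per library ran from 34.4 to 58.4 M. Levels per kilobase of merged exons allow a rough comparison of different genes. Merged exons take in all annotated transcripts, so a gene whose expressed transcript is shorter is understated. By this measure Slc5a2 had the highest median over the 47 libraries at 136 CPM per kb, followed by Slc5a12 at 114 and Slc5a10 at 111. Slc5a8 had a median of 52.5, Slc2a2 of 38.8, Slc5a1 of 30.0 and Slc5a11 of 20.9 CPM per kb. Below them lay Slc2a1 at 12, Slc2a4 at 6.95 and Slc2a9 at 3.43 CPM per kb. By this median over all libraries the SGLT2 transcript was the most abundant of the members. Those of the insulin-responsive and urate carriers were the least. The order at the top did not hold in each library. The highest value of Slc5a12 was 230 CPM per kb and that of Slc5a10 was 215, against 191 for Slc5a2. Across the 12 groups Slc5a2 varied least, with 1.36-fold between its lowest and highest group mean, and Slc5a8 most, with 4.43-fold. The highest group mean was in CAST/EiJ for 8 of the members, the exceptions being Slc2a1 (63.4 CPM, NZO/HlLtJ females on 10% fat) and Slc2a2 (309 CPM, NZO/HlLtJ males on 44% fat). Neighbouring groups in the order of means mostly overlapped in range. For Slc2a9 there was 1 gap, between the 4 CAST/EiJ groups and the rest.

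The library of C57BL/6J female 44% fat replicate 1 lay at the end of its group for several members. It was the highest of its group for Slc5a1 (178 CPM), Slc5a10 (482), Slc2a2 (356) and Slc5a12 (533) and the lowest for Slc2a1 (39.7). Of these only its Slc2a1 value was flagged as far from the others of its group (54.2 to 56.8 CPM). Results that change without it are given below with and without that library.

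**Figure D1:**
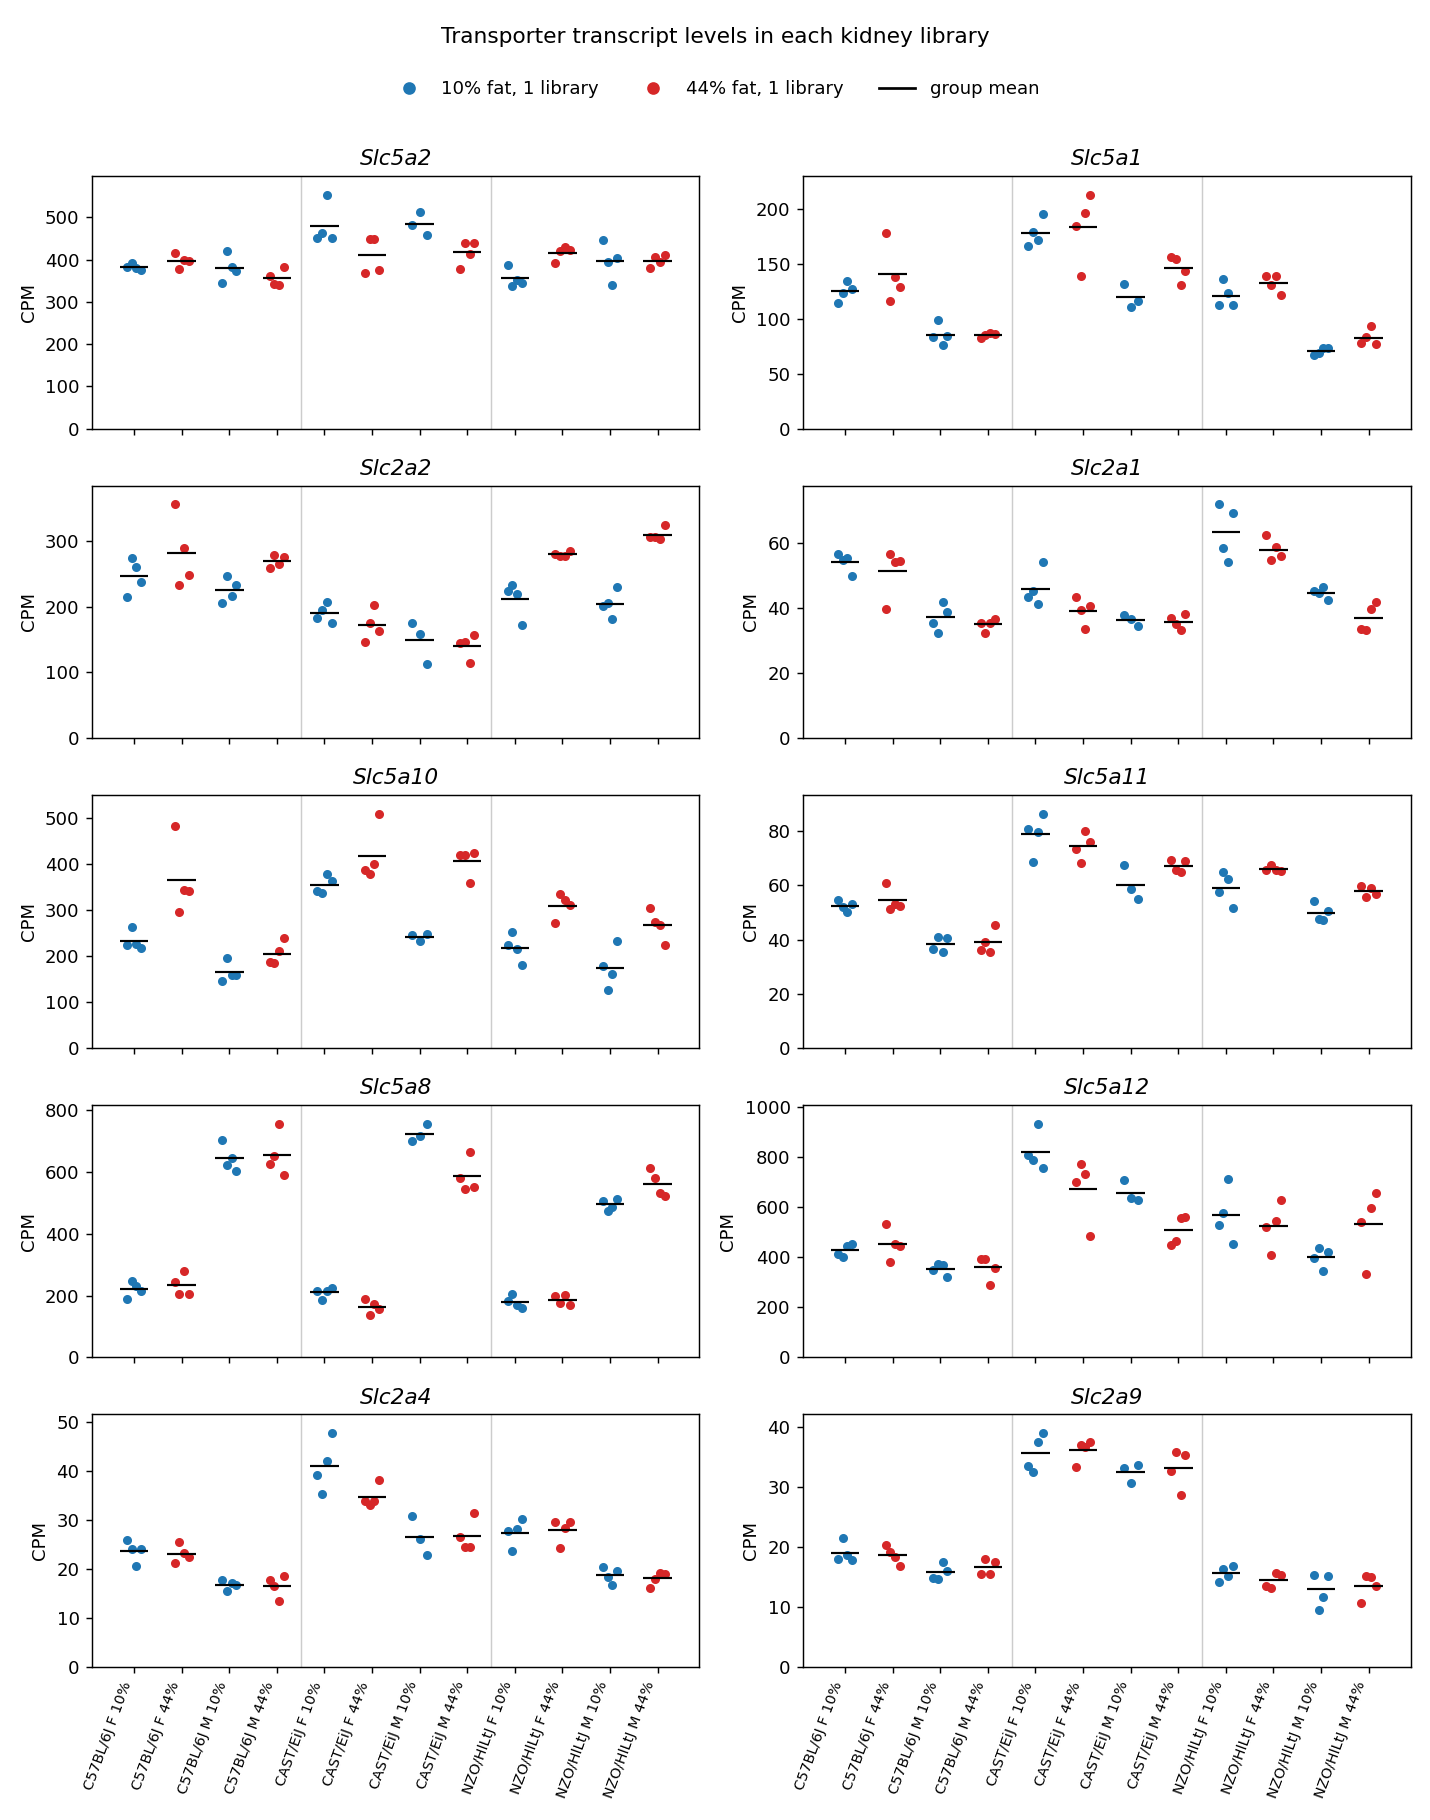
CPM (linear axis from 0) of the 10 members in each of the 47 libraries, by strain, sex and diet. Points are single libraries, blue on 10% fat and red on 44% fat, and black lines are group means. Slc5a8 separates the sexes in each strain, Slc2a9 separates CAST/EiJ from the other strains, and Slc5a2 stays between 338 and 554 CPM in all libraries.

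The first comparison asked what the 44% fat diet did to the carriers within each strain, with the sexes averaged. In C57BL/6J 1 member rose and none fell, where 0.0266% of all 18786 genes tested were called. In CAST/EiJ 1 rose and 2 fell, against 0.99% of all genes. In NZO/HlLtJ 3 rose and none fell, against 3.62% of all genes. The median log2 fold change of the 10 members was 0.05 in C57BL/6J, -0.11 in CAST/EiJ and 0.13 in NZO/HlLtJ, while the median of all genes lay at 0.00 in each. Adjusted p-values here and below are from edgeR's quasi-likelihood test with Benjamini-Hochberg adjustment over all genes, called under 0.05. How often groups fail to overlap among all genes was not computed. A lack of overlap here and below therefore only describes these libraries. In whole-kidney RNA, fewer cells of a type and less RNA per cell cannot be told apart.

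Slc5a10, the mannose and fructose carrier of the brush border (ENSMUSG00000042371, GRCm38 chromosome 11, 61672781 to 61720826, minus strand), rose in all 3 strains. In C57BL/6J females it was at 224, 263, 225 and 218 CPM on 10% fat and at 482, 295, 343 and 342 CPM on 44% fat. Males had 145, 196, 159 and 159 CPM on 10% fat and 187, 184, 211 and 238 CPM on 44% fat. The females of the diets did not overlap and the males did, by 1 control library. CAST/EiJ females had 341, 337, 379 and 364 CPM on 10% fat and 386, 378, 400 and 509 CPM on 44% fat. In CAST/EiJ males the values were 246, 232 and 247 CPM against 420, 420, 360 and 424 CPM. Here it was the males that separated fully, and the females met at 378 and 379 CPM. NZO/HlLtJ females had 225, 252, 215 and 181 CPM on 10% fat and 271, 334, 322 and 311 CPM on 44% fat. NZO/HlLtJ males had 178, 125, 160 and 232 CPM and 305, 273, 268 and 223 CPM. The females did not overlap, and in the males 1 library of each diet crossed.

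The log2 fold change of Slc5a10 was 0.47 ± 0.09 (SE; 1.39-fold, adjusted p 0.0438) in C57BL/6J, 0.52 ± 0.10 (1.43-fold, adjusted p 0.00452) in CAST/EiJ and 0.56 ± 0.09 (1.48-fold, adjusted p 0.000344) in NZO/HlLtJ. The sizes lay close together, and none of the 3 differences between strains was called, the largest being 0.09 ± 0.13 for NZO/HlLtJ minus C57BL/6J. Within runs of sample ID numbers the change was positive in 5 of 6 pairs of run and sex in C57BL/6J, 6 of 6 in CAST/EiJ and 2 of 2 in NZO/HlLtJ, where the females and males of the other runs were on opposite diets. The C57BL/6J call was fragile. Leaving out any of 11 of its 16 libraries ended it (log2 0.39 to 0.48, adjusted p 0.0579 to 0.233), and it held without female 10% fat replicate 2, female 44% fat replicates 2 or 4, male 10% fat replicate 2 or male 44% fat replicate 1. Without the library named above, female 44% fat replicate 1, the change was 0.39 (adjusted p 0.201).

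Slc2a2, the GLUT2 carrier through which glucose leaves the cell (ENSMUSG00000027690, chromosome 3, 28697903 to 28731359), rose in NZO/HlLtJ. Females of this strain had 223, 232, 219 and 173 CPM on 10% fat and 281, 277, 276 and 284 CPM on 44% fat. Males had 201, 205, 181 and 230 CPM on 10% fat and 305, 305, 303 and 323 CPM on 44% fat. The diets did not overlap in either sex, and the 44% fat groups were tight, at 280 ± 3.53 and 309 ± 9.58 CPM (SD, n = 4 each) against 212 ± 26.7 and 204 ± 20.1 CPM (SD, n = 4 each). This was 1.41-fold (log2 0.50 ± 0.08 SE, adjusted p 0.000327). This was the smallest adjusted p of a member in any diet comparison.

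In the other strains Slc2a2 was not called for diet. C57BL/6J males had 206, 246, 217 and 233 CPM on 10% fat and 259, 278, 265 and 276 CPM on 44% fat, with no overlap. C57BL/6J females overlapped, at 214, 273, 260 and 237 CPM against 356, 232, 289 and 248 CPM, and the log2 fold change was 0.22 ± 0.08 (SE, adjusted p 0.66). In CAST/EiJ the values on 44% fat were the lower ones on average. Females had 183, 195, 207 and 175 CPM on 10% fat and 146, 174, 203 and 164 CPM on 44% fat, and males 175, 159 and 112 CPM and 145, 146, 114 and 157 CPM. The log2 fold change there was -0.12 ± 0.09 (SE, adjusted p 0.575), and the diets overlapped in both sexes.

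Slc5a2 and Slc5a8 fell on 44% fat in CAST/EiJ. Slc5a2, the SGLT2 gene (ENSMUSG00000030781, chromosome 7, 128265657 to 128272430), was at 451, 464, 554 and 450 CPM in the 10% fat females and 369, 448, 448 and 375 CPM in the 44% fat females. Males had 481, 513 and 457 CPM on 10% fat and 377, 439, 414 and 440 CPM on 44% fat. In both sexes each 44% fat library lay under each 10% fat library. The log2 fold change was -0.23 ± 0.05 (SE; 1.17-fold lower, adjusted p 0.0239), and it was negative in 6 of 6 pairs of run and sex. The call ended on leaving out male 10% fat replicate 1 or 2, male 44% fat replicate 1, female 10% fat replicate 3 or female 44% fat replicate 4 (log2 -0.22 to -0.19, adjusted p 0.0667 to 0.103). With the samples of CAST/EiJ alone it ended too (log2 -0.24, adjusted p 0.102). In NZO/HlLtJ the same gene had its higher values on 44% fat in females, with 388, 338, 352 and 344 CPM on 10% fat and 391, 421, 429 and 423 CPM on 44% fat. NZO/HlLtJ males overlapped, at 446, 395, 341 and 402 CPM against 379, 405, 395 and 410 CPM, and the strain's log2 fold change of 0.12 ± 0.05 (SE) was not called (adjusted p 0.225). In C57BL/6J it was -0.02 ± 0.05 (SE, adjusted p 1).

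Slc5a8, a sodium-coupled monocarboxylate carrier (ENSMUSG00000020062, chromosome 10, 88885992 to 88929505), was at 217, 186, 216 and 226 CPM in CAST/EiJ females on 10% fat and 189, 137, 174 and 155 CPM in females on 44% fat. Males of the strain had 701, 716 and 757 CPM on 10% fat and 580, 546, 666 and 553 CPM on 44% fat. The males separated by diet and the females met at 186 and 189 CPM. The log2 fold change was -0.33 ± 0.07 (SE; 1.26-fold lower, adjusted p 0.0154), negative in 6 of 6 pairs of run and sex. Without male 10% fat replicate 2, which leaves 2 libraries in that group, it was -0.33 with an adjusted p of 0.055. With the samples of CAST/EiJ alone the call also ended (adjusted p 0.0667). In the same CAST/EiJ libraries the summed level of the 4 macrophage markers was 99.1 to 107 CPM on 10% fat and 119 to 126 CPM on 44% fat in females, and 118 to 135 and 145 to 155 CPM in males, without overlap. EdgeR called 0 of these 4 for diet in CAST/EiJ (3 with an unadjusted p under 0.05), DESeq2 called 3, each higher on 44% fat, and their part in the Slc5a2 and Slc5a8 results was not tested. Slc5a12, the other monocarboxylate carrier (ENSMUSG00000041644, chromosome 2, 110597298 to 110647779), had a change of -0.35 ± 0.11 (SE) in CAST/EiJ that was not called (adjusted p 0.122), although DESeq2's Wald test called it. Its CAST/EiJ males had 707, 634 and 628 CPM on 10% fat and 448, 463, 554 and 561 CPM on 44% fat, without overlap. CAST/EiJ females had 805, 789, 932 and 753 CPM and 699, 773, 730 and 485 CPM, with overlap.

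Slc5a11, the myo-inositol carrier (ENSMUSG00000030769, chromosome 7, 123214780 to 123273253), rose slightly in NZO/HlLtJ. Females had 57.6, 65.1, 62.4 and 51.7 CPM on 10% fat and 65.6, 67.6, 65.6 and 65.5 CPM on 44% fat. Males had 54.1, 47.7, 47.1 and 50.4 CPM on 10% fat and 59.9, 55.9, 59.1 and 56.9 CPM on 44% fat. The diets did not overlap in either sex, though the ranges nearly touched. The log2 fold change was 0.19 ± 0.05 (SE; 1.14-fold, adjusted p 0.028). Leaving out female 10% fat replicate 1 or 4, female 44% fat replicate 2, male 10% fat replicate 2 or 3 or male 44% fat replicate 1 or 4 ended the call (log2 0.16 to 0.19, adjusted p 0.0517 to 0.0817).

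The remaining members were not called for diet in any strain. Slc5a1 (SGLT1; ENSMUSG00000011034, chromosome 5, 33104219 to 33162870) had log2 fold changes of 0.08, 0.17 and 0.18 in C57BL/6J, CAST/EiJ and NZO/HlLtJ. NZO/HlLtJ males separated for this gene, with 67.1, 69, 73.3 and 72.8 CPM on 10% fat and 77.9, 83.5, 93.1 and 76.4 CPM on 44% fat. Slc2a1 (GLUT1; ENSMUSG00000028645, chromosome 4, 119108711 to 119137983) had negative changes of -0.08, -0.12 and -0.20 in the same order, the last with an adjusted p of 0.0931. NZO/HlLtJ males had 45.2, 44.8, 46.5 and 42.6 CPM of Slc2a1 on 10% fat and 33.5, 33.2, 39.6 and 41.9 CPM on 44% fat, also without overlap. For Slc2a4 (GLUT4; ENSMUSG00000018566, chromosome 11, 69942539 to 69948188, minus strand) and Slc2a9 (ENSMUSG00000005107, chromosome 5, 38349273 to 38503143, minus strand) the changes lay between -0.11 and 0.03, and the diets overlapped in each strain and sex.

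**Figure D2:**
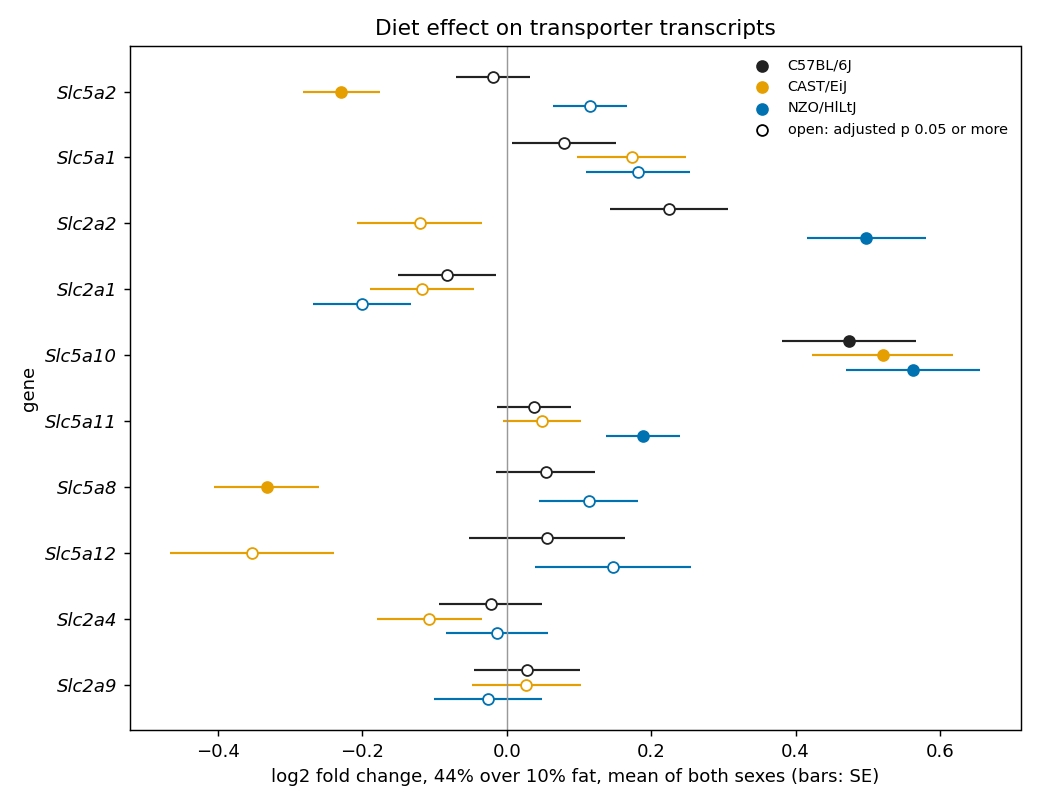
Log2 fold change of 44% over 10% fat for the 10 members by strain, with the sexes averaged and SE bars. Filled symbols had an adjusted p under 0.05 and open ones did not. Slc5a10 lies between 0.47 and 0.56 in the 3 strains, whereas Slc2a2, Slc5a2, Slc5a8 and Slc5a12 lie to the left of 0 in CAST/EiJ and to the right in NZO/HlLtJ.

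The next comparison asked whether the diet effect differed between strains. These differences share samples with each other and with the effects within strains. Between NZO/HlLtJ and CAST/EiJ 3 members differed, each with the higher effect in NZO/HlLtJ, where 1.28% of all genes were called. For Slc2a2 the difference was 0.62 ± 0.12 on the log2 scale (SE, adjusted p 0.00608), for Slc5a8 0.45 ± 0.10 (adjusted p 0.0187) and for Slc5a2 0.34 ± 0.07 (adjusted p 0.0138). Slc5a12 had a difference of 0.50 ± 0.16 that was not called (adjusted p 0.105) but was called by DESeq2. The diet effects on an apical glucose carrier, a basolateral glucose carrier and a monocarboxylate carrier thus differed between these strains, though Slc5a2 and Slc5a8 were not called for diet in NZO/HlLtJ itself. With the samples of these strains alone, the Slc5a2 difference was 0.34 with an adjusted p of 0.0589. Between NZO/HlLtJ and C57BL/6J edgeR called 0 members (2 with an unadjusted p under 0.05, and 0 by DESeq2), where 0.0373% of all genes were called. The Slc2a2 difference there was 0.27 ± 0.12 (adjusted p 0.654). Between CAST/EiJ and C57BL/6J edgeR called 0 (4 unadjusted), against 0.0532% of all genes, and DESeq2 called 1, Slc5a8, which edgeR put at -0.39 ± 0.10 (adjusted p 0.178).

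The diet effects were also compared between the sexes of each strain. In C57BL/6J edgeR called 0 members (0 with an unadjusted p under 0.05, 0 by DESeq2), and 0% of all genes. In CAST/EiJ it called 0 (2 unadjusted, 0 by DESeq2) and 0.0479% of all genes. The larger of these was Slc5a10, whose diet effect in CAST/EiJ females minus that in males was -0.50 ± 0.19 (SE, adjusted p 0.533). In NZO/HlLtJ it called 0 (1 unadjusted, 0 by DESeq2) and 0.00532% of all genes. In that strain run 81 held only females on 10% fat and males on 44% fat, and run 89 the reverse. Outside run 77 its contrast thus rests on the run term, which was fitted over all strains. The separation of 1 sex and not the other, described above for several members, was therefore not a called difference between the sexes.

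Females and males differed for most members. In C57BL/6J 7 members were higher in females and 1 in males, where 47.9% of all genes were called. In CAST/EiJ the counts were 7 and 1, against 47.6% of all genes. In NZO/HlLtJ 6 were higher in females and 1 in males, against 49.9%. A sex difference was common among all kidney genes, and the 7 or 8 of 10 members are read against that share. The median log2 fold change of the members, females over males, was 0.38, 0.28 and 0.23 in the 3 strains, and that of all genes was 0.05, 0.05 and 0.04. The TMM factors separated the sexes, at 1.00 to 1.11 in females and 0.890 to 0.993 in males. Small sex values below, and the lack of a call for Slc5a2, rest on this scaling.

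Slc5a8 was the member higher in males. In C57BL/6J the 8 females had 188 to 280 CPM with a median of 223, and the 8 males 590 to 758 CPM with a median of 636. In CAST/EiJ the females had 137 to 226 CPM (median 188, n = 8) and the males 546 to 757 CPM (median 666, n = 7). NZO/HlLtJ females had 160 to 206 CPM (median 180, n = 8) and males 475 to 612 CPM (median 518, n = 8). The lowest male library of each strain thus lay well above the highest female library. The male level was 2.86-fold higher in C57BL/6J (log2, females over males, -1.51 ± 0.07 SE, adjusted p 5.5e-21), 3.51-fold in CAST/EiJ (-1.81 ± 0.07, adjusted p 2.64e-23) and 2.89-fold in NZO/HlLtJ (-1.53 ± 0.07, adjusted p 1.71e-21). In these libraries the summed level of 6 markers of the last proximal tubule segment (S3) moved the same way, at 3512 to 5113 CPM in females and 6479 to 9782 CPM in males, and its part in the Slc5a8 result was not tested. Of these markers Slc7a13, Atp11a and Slc27a2 were higher in males in each strain and Slc7a12 in females.

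Slc5a1 was higher in females, the opposite of Slc5a8. C57BL/6J females had 114 to 178 CPM (median 128) and males 75.7 to 98.7 CPM (median 84.7), which is 0.64 ± 0.07 on the log2 scale (SE, adjusted p 1.73e-09). CAST/EiJ females had 139 to 213 CPM (median 181) and males 111 to 156 CPM (median 132), which overlapped, with a change of 0.45 ± 0.08 (adjusted p 4.12e-06). NZO/HlLtJ females had 112 to 139 CPM (median 127) and males 67.1 to 93.1 CPM (median 74.9), with 0.73 ± 0.07 (adjusted p 4.63e-11). Thus SGLT1 transcripts were 1.37-fold to 1.66-fold higher in females, while those of Slc5a2, the SGLT2 gene, were at 0.07, -0.02 and -0.04 (adjusted p 0.271, 0.817 and 0.5) and overlapped between the sexes in each strain.

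Slc2a4 was higher in females in each strain and the sexes did not overlap. The ranges were 20.7 to 25.9 CPM in females and 13.6 to 18.7 CPM in males in C57BL/6J, 33.0 to 47.8 and 23.0 to 31.4 CPM in CAST/EiJ, and 23.8 to 30.2 and 16.1 to 20.5 CPM in NZO/HlLtJ. The log2 fold changes were 0.50, 0.50 and 0.59, each with an SE of 0.07 and an adjusted p of at most 3.27e-07. The transcript was among the least abundant of the members, and GLUT4 is best known from muscle and fat. The 3 smooth muscle markers Acta2, Myh11 and Tagln were higher in females for 3, 2 and 1 of them in C57BL/6J, CAST/EiJ and NZO/HlLtJ. The skeletal muscle marker Mylpf lay at 0.0987 to 0.758 CPM, and DESeq2 called it for sex in no strain. Of 5 adipocyte markers edgeR called 4 higher in females in NZO/HlLtJ (median log2 of the list 1.52). In C57BL/6J it called 0 (1 with an unadjusted p under 0.05, 0 by DESeq2). In CAST/EiJ it called 0 (0 unadjusted), while DESeq2 called 1, higher in females. These marker counts are read against the 47.6 to 49.9% of all genes called between the sexes. The part of these markers in the Slc2a4 result was not tested.

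Slc2a1 was higher in females by 0.56 ± 0.07 in C57BL/6J (adjusted p 8.3e-09), 0.23 ± 0.07 in CAST/EiJ (adjusted p 0.00771) and 0.58 ± 0.07 in NZO/HlLtJ (adjusted p 2.29e-09). In NZO/HlLtJ the sexes did not overlap, at 54.0 to 71.9 CPM against 33.2 to 46.5 CPM. Slc5a11 was higher by 0.48, 0.27 and 0.22 (adjusted p 3.66e-10, 5.72e-05 and 0.000395) and did not overlap in C57BL/6J, where females had 50.2 to 60.9 CPM and males 35.5 to 45.5 CPM. Slc5a10 was higher by 0.70, 0.29 and 0.27 (adjusted p 7.71e-08, 0.0136 and 0.0144) and overlapped in each strain. Without NZO/HlLtJ male 10% fat replicate 2 its NZO/HlLtJ change was 0.21 (adjusted p 0.0503). The values of both carriers were largest in C57BL/6J, and tests of that difference follow.

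The smaller differences were those of Slc5a12, Slc2a9 and Slc2a2. Slc5a12 was higher in females by 0.29 ± 0.11 in C57BL/6J (adjusted p 0.0289) and 0.36 ± 0.11 in CAST/EiJ (adjusted p 0.0075), and the NZO/HlLtJ value of 0.25 ± 0.11 was not called (adjusted p 0.0558). The C57BL/6J call ended without female 44% fat replicate 1, female 10% fat replicate 4, male 10% fat replicate 4 or male 44% fat replicate 3 (log2 0.23 to 0.27, adjusted p 0.0505 to 0.0917). Slc2a9 was higher by 0.23 ± 0.07 in C57BL/6J (adjusted p 0.0102) and 0.18 ± 0.07 in NZO/HlLtJ (adjusted p 0.0425), with 0.12 ± 0.07 in CAST/EiJ (adjusted p 0.187). In NZO/HlLtJ the Slc2a9 call ended on leaving out female 10% fat replicate 2 or 4, female 44% fat replicate 3 or 4, male 10% fat replicate 2 or 3 or male 44% fat replicate 1 or 4 (log2 0.12 to 0.17, adjusted p 0.0651 to 0.148), and also without the filter or with that strain alone (0.17, adjusted p 0.0722 to 0.135). Slc2a2 was higher in females in CAST/EiJ, by 0.33 ± 0.09 (adjusted p 0.00185), with 0.08 and -0.05 in C57BL/6J and NZO/HlLtJ (adjusted p 0.463 and 0.669).

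**Figure D3:**
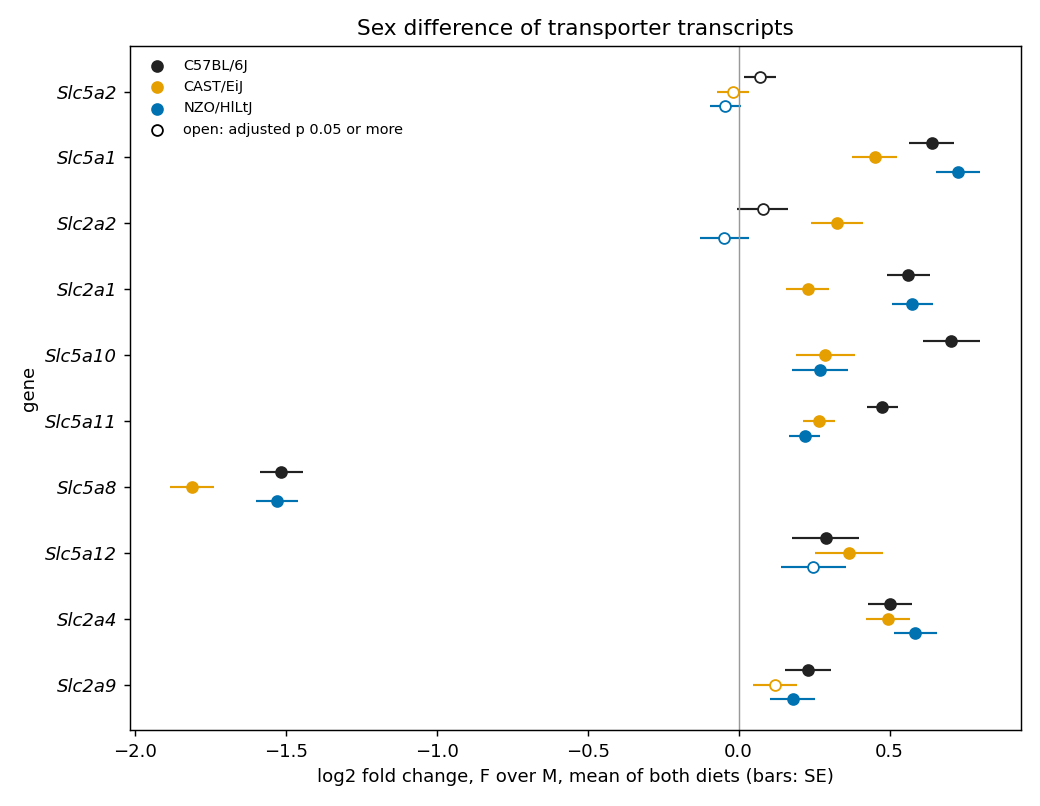
Log2 fold change of females over males for the 10 members in each strain, as the mean of both diets, with SE bars. Filled symbols had an adjusted p under 0.05. Slc5a8 lies at -1.51 to -1.81 and the other called values lie to the right of 0, up to 0.73 for Slc5a1.

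The sex difference itself differed between strains for some members. Between NZO/HlLtJ and C57BL/6J 2 members had a smaller female excess in NZO/HlLtJ, Slc5a10 (difference -0.43 ± 0.13 SE, adjusted p 0.0476) and Slc5a11 (-0.26 ± 0.07, adjusted p 0.0268), where 4.95% of all genes were called. Between NZO/HlLtJ and CAST/EiJ 2 members differed, against 14.3% of all genes, Slc2a1 (0.35 ± 0.10, adjusted p 0.0118) and Slc2a2 (-0.37 ± 0.12, adjusted p 0.028). For these strains Slc5a8 was at 0.28 and narrowly not called (adjusted p 0.0506). It was called in 3 of 5 alternatives, DESeq2 among them, and in 11 of 31 fits that left out a library. Between CAST/EiJ and C57BL/6J 3 members differed, against 13.2% of all genes. These were Slc5a10 (-0.42 ± 0.14, adjusted p 0.0345), Slc2a1 (-0.33 ± 0.10, adjusted p 0.0195) and Slc5a8 (-0.30 ± 0.10, adjusted p 0.0444), whose male excess was larger in CAST/EiJ. Slc5a11 was at -0.21 ± 0.07 there and was not called (adjusted p 0.0556). The female excess of Slc2a1 was thus the smallest in CAST/EiJ, and that of Slc5a10 the largest in C57BL/6J.

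Most of these differences did not withstand the loss of a library. Without C57BL/6J female 44% fat replicate 1, Slc5a10 was at -0.35 (adjusted p 0.102) and Slc5a11 at -0.23 (adjusted p 0.0561) for NZO/HlLtJ minus C57BL/6J, and Slc5a8 at -0.29 (adjusted p 0.0607) and Slc5a10 at -0.33 (adjusted p 0.0717) for CAST/EiJ minus C57BL/6J. The Slc5a10 difference of NZO/HlLtJ and C57BL/6J ended in 4 of 5 alternatives (adjusted p 0.0521 to 0.126), DESeq2 calling it, and in 22 of 32 such fits, and held without C57BL/6J female 10% fat replicate 4, female 44% fat replicates 2 or 4, male 10% fat replicate 2 or male 44% fat replicate 4, or NZO/HlLtJ female replicate 2 of either diet, male 10% fat replicates 2 or 3 or male 44% fat replicate 4. That of Slc5a11 also ended without C57BL/6J male replicate 1 of either diet or NZO/HlLtJ female 10% fat replicate 4. The Slc2a2 difference ended without CAST/EiJ female 44% fat replicate 3, CAST/EiJ male replicate 3 of either diet or NZO/HlLtJ replicate 4 of either sex on 10% fat (-0.34 to -0.29, adjusted p 0.0521 to 0.0909). The Slc5a8 difference ended with DESeq2 size factors, without the filter and with these strains alone (-0.28 to -0.27, adjusted p 0.0593 to 0.119) and in 19 of 31 fits that left out a library, and held without C57BL/6J replicate 1 of either sex on 10% fat, female 44% fat replicates 2 or 4 or male 44% fat replicate 3, or CAST/EiJ female 10% fat replicate 4, female 44% fat replicates 1 or 3, male 10% fat replicate 1 or male 44% fat replicates 1, 2 or 4. The Slc5a10 difference of CAST/EiJ and C57BL/6J ended without the filter, without the run term (adjusted p 0.0558 to 0.0771) and in 12 of 31 fits. Besides the library named above these left out C57BL/6J female 10% fat replicate 2, male 10% fat replicates 1, 3 or 4 or male 44% fat replicates 1 or 2, or CAST/EiJ female 44% fat replicates 1 or 2, male 10% fat replicates 1 or 2 or male 44% fat replicate 2. Both Slc2a1 differences held in each fit that left out 1 library.

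The strains were then compared on 10% fat, as the mean of both sexes. CAST/EiJ stood above C57BL/6J for 7 members and below it for 1, where 60% of all genes were called. NZO/HlLtJ was below CAST/EiJ for 8 and above it for 2, against 59.1% of all genes. Against C57BL/6J, NZO/HlLtJ was higher for 4 and lower for 2, with 36.9% of all genes called. The members' median log2 fold change was 0.53, -0.47 and -0.02 in this order, and the medians of all genes were 0.01, -0.01 and 0.00. The build in the submitters' processing notes is GRCm38, the genome of C57BL/6J, and what this did to the levels of the other strains was not tested.

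Slc2a9, the urate carrier, had the clearest strain pattern. CAST/EiJ libraries of both sexes and diets lay at 28.6 to 38.9 CPM, C57BL/6J libraries at 14.7 to 21.4 CPM and NZO/HlLtJ libraries at 9.52 to 16.8 CPM. No CAST/EiJ library reached down to those of another strain, while C57BL/6J and NZO/HlLtJ overlapped. On 10% fat CAST/EiJ was 1.97-fold above C57BL/6J (log2 0.98 ± 0.08 SE, adjusted p 1.02e-14), and NZO/HlLtJ was 2.36-fold below CAST/EiJ (-1.24 ± 0.08, adjusted p 8.81e-18) and 1.2-fold below C57BL/6J (-0.26 ± 0.07, adjusted p 0.00479).

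Slc5a12, the lactate carrier, was also highest in CAST/EiJ. On 10% fat the 7 CAST/EiJ libraries had 628 to 932 CPM (median 753), the 8 C57BL/6J libraries 322 to 451 CPM (median 386) and the 8 NZO/HlLtJ libraries 345 to 712 CPM (median 444). CAST/EiJ was 1.90-fold above C57BL/6J without overlap (log2 0.93 ± 0.11 SE, adjusted p 6.16e-09). NZO/HlLtJ lay between the other strains, with a log2 value of 0.31 ± 0.11 over C57BL/6J (adjusted p 0.026) and of -0.62 ± 0.11 over CAST/EiJ (adjusted p 1.33e-05). Its difference from C57BL/6J ended without C57BL/6J female 10% fat replicate 2 or NZO/HlLtJ female 10% fat replicate 3 (log2 0.24 to 0.28, adjusted p 0.0513 to 0.0919).

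The sodium-coupled sugar carriers were also highest in CAST/EiJ. On 10% fat Slc5a2 lay at 450 to 554 CPM in CAST/EiJ, 345 to 421 CPM in C57BL/6J and 338 to 446 CPM in NZO/HlLtJ, so that CAST/EiJ did not overlap either strain. The difference was 0.34 ± 0.05 from C57BL/6J (adjusted p 5.85e-07) and, for NZO/HlLtJ, -0.36 ± 0.05 from CAST/EiJ (adjusted p 3.24e-07). Slc5a1 was 0.49 ± 0.08 higher in CAST/EiJ than in C57BL/6J (adjusted p 4.7e-07) and had a log2 value of -0.66 ± 0.08 for NZO/HlLtJ over CAST/EiJ (adjusted p 8.68e-10). Slc5a10 had log2 values of 0.57 (adjusted p 4.19e-06) and -0.58 (adjusted p 2.81e-06) for these contrasts, and Slc5a11 of 0.61 (adjusted p 3.18e-13) and -0.35 (adjusted p 3.46e-07). Slc2a4 belonged with them, at 0.73 (adjusted p 2.14e-11) and -0.54 (adjusted p 3.98e-08). Slc5a11 and Slc2a4 were further 0.26 (adjusted p 7.69e-05) and 0.19 (adjusted p 0.0327) higher in NZO/HlLtJ than in C57BL/6J. The latter ended without C57BL/6J female replicate 3, male replicate 2 or male replicate 4, or NZO/HlLtJ female replicate 3 or 4 or male replicate 1 or 4, all on 10% fat (log2 0.16 to 0.19, adjusted p 0.0522 to 0.0923).

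The glucose carriers of the blood side did not share this order. Slc2a2 had 112 to 207 CPM in CAST/EiJ on 10% fat (median 175), 206 to 273 CPM in C57BL/6J (median 235) and 173 to 232 CPM in NZO/HlLtJ (median 212). It was 1.40-fold lower in CAST/EiJ than in C57BL/6J (log2 -0.49 ± 0.09 SE, adjusted p 7.35e-06) and 0.30 ± 0.09 higher in NZO/HlLtJ than in CAST/EiJ (adjusted p 0.00286). Slc2a1 was higher in NZO/HlLtJ, by 0.26 ± 0.07 over C57BL/6J (adjusted p 0.00292) and 0.39 ± 0.07 over CAST/EiJ (adjusted p 1.18e-05), and its value of -0.13 ± 0.07 for CAST/EiJ over C57BL/6J was not called (adjusted p 0.102). On 10% fat CAST/EiJ thus combined the highest levels of the urine-side carriers Slc5a2, Slc5a1 and Slc5a10 with the lowest of Slc2a2. Slc5a8 was lower in NZO/HlLtJ than in both other strains, by log2 values of -0.35 (adjusted p 8.81e-05) and -0.40 (adjusted p 8.5e-06), and differed by 0.05 between CAST/EiJ and C57BL/6J (adjusted p 0.568).

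**Figure D4:**
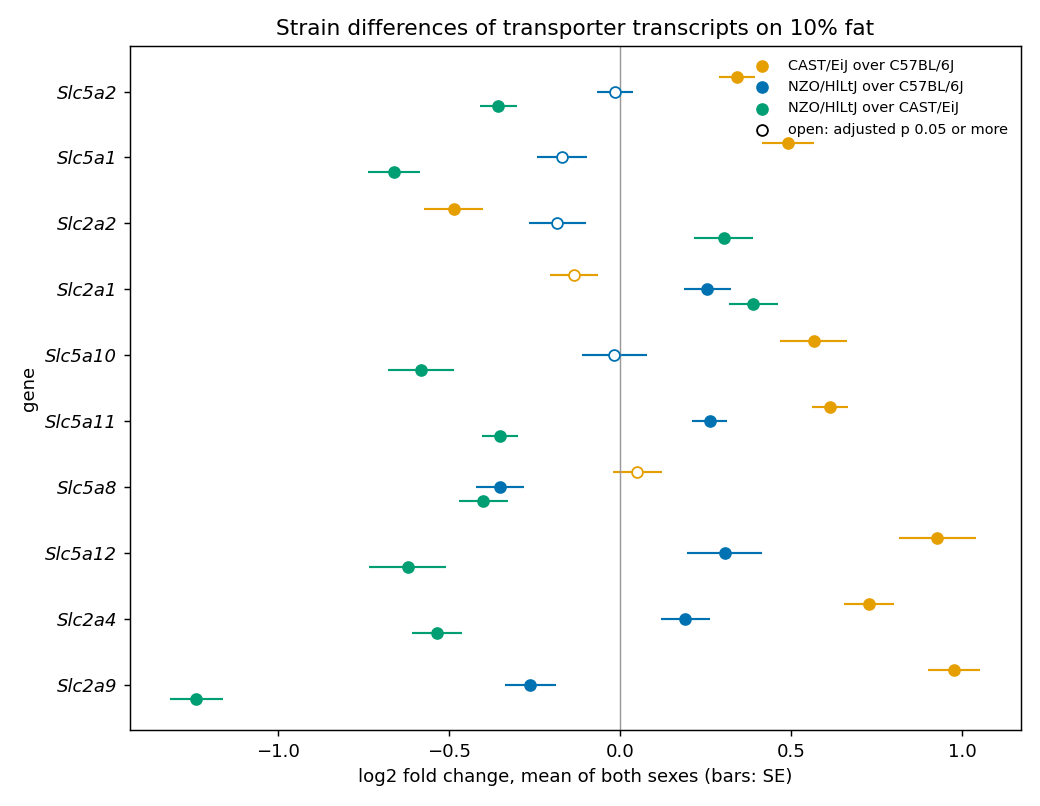
Log2 differences between the strains on 10% fat for the 10 members, as the mean of both sexes, with SE bars. Filled symbols had an adjusted p under 0.05. Slc2a9 and Slc5a12 lie farthest to the right for CAST/EiJ over C57BL/6J, at 0.98 and 0.93, and Slc2a2 lies to the left of 0 there, at -0.49.

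Partners and regulators of these carriers formed a list of 12 genes, all tested. It included the SGLT2 partner Pdzk1ip1, the brush-border scaffolds Pdzk1 and Slc9a3r1, the transcription factors Hnf4a and Mlxipl, the kinase Sgk1, the glucose-responsive Txnip, and the sodium pump genes Atp1b1 and Fxyd2. For diet edgeR called 0 of them in C57BL/6J and 0 in CAST/EiJ (0 with an unadjusted p under 0.05 and 0 by DESeq2 in each). In NZO/HlLtJ 2 rose, among them the sodium pump subunit Atp1b1 (0.16 ± 0.05 SE, adjusted p 0.0481), and the list's median was -0.05. Of all genes 3.62% were called for diet in that strain.

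Between the sexes 6 of the 12 partners were called in each strain, 2 higher in females and 4 in males in C57BL/6J and in NZO/HlLtJ, and 3 and 3 in CAST/EiJ. Mlxipl, the carbohydrate response factor ChREBP, was lower in females by log2 values of -0.46, -0.25 and -0.52 in C57BL/6J, CAST/EiJ and NZO/HlLtJ. Hnf4a was at -0.37, -0.35 and -0.33, and Slc9a3r1 (NHERF1) at -0.44, -0.25 and -0.51. Both directions were thus present, and the 6 of 12 called are near the share over all genes given above. On 10% fat CAST/EiJ exceeded C57BL/6J for 5 of the 12 and was below it for 1, with Mlxipl at 0.48 and Pdzk1 at 0.34. Of all genes 60% were called in this contrast. NZO/HlLtJ exceeded CAST/EiJ for 2 and was below it for 4, including Pdzk1 (-0.39), Pdzk1ip1 (-0.33) and Mlxipl (-0.38), where 59.1% of all genes were called.

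Other genes of the Slc5 and Slc2 families gave 10 tested of 15 listed. Slc5a4a, Slc5a4b and Slc5a5 did not pass the filter, and Slc5a7 and Slc2a7 had no row in the table used here. For diet edgeR called 0 of the 10 in each strain (2, 3 and 3 with an unadjusted p under 0.05, and 0, 0 and 1 by DESeq2 in C57BL/6J, CAST/EiJ and NZO/HlLtJ, where it gave 4, 10 and 10 of them an adjusted p). Between the sexes 8, 8 and 6 of the 10 were higher in females and 0 in males, with medians of 0.43, 0.52 and 0.46. Over all genes 47.9, 47.6 and 49.9% were called, in either direction. The biotin and pantothenate carrier Slc5a6 was higher in females by 1.30 ± 0.13, 0.64 ± 0.13 and 1.64 ± 0.12, and Slc5a9 (SGLT4) by 0.43 ± 0.06, 0.56 ± 0.06 and 0.61 ± 0.06. The fructose carrier Slc2a5 (GLUT5) was higher in NZO/HlLtJ on 10% fat, by 0.89 ± 0.14 over C57BL/6J (adjusted p 2.17e-06) and 0.99 ± 0.14 over CAST/EiJ (adjusted p 3.27e-07). CAST/EiJ was above C57BL/6J for 5 family genes and below it for 1, with the myo-inositol carriers Slc2a13 (1.18 ± 0.08) and Slc5a3 (1.06 ± 0.13) among the former. These counts are read against the 60% of all genes called in that contrast.

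Markers of tubule segments and of other cells were set beside the members. The 7 markers of the early proximal tubule (S1 and S2) summed to 12018 to 18551 CPM, and the diet comparisons called 0 of them in C57BL/6J (2 unadjusted, 0 by DESeq2), 0 in CAST/EiJ (1 unadjusted, 0 by DESeq2) and 1 in NZO/HlLtJ, the bicarbonate carrier Slc4a4 (0.30 ± 0.05, adjusted p 0.000568). Of the 6 S3 markers edgeR called 0 in C57BL/6J (1 unadjusted, 1 by DESeq2), 0 in CAST/EiJ (1 unadjusted, 0 by DESeq2) and 2 in NZO/HlLtJ, where Atp11a (-0.31 ± 0.09, adjusted p 0.0379) and Slc22a7 (-0.60 ± 0.17, adjusted p 0.0452) fell. Of the 6 loop and distal markers edgeR called 0 in C57BL/6J (3 unadjusted, 2 by DESeq2) and 0 in CAST/EiJ (3 unadjusted, 1 by DESeq2). In NZO/HlLtJ 3 were called, Calb1 higher (0.57 ± 0.10) and Slc4a1 (-0.29 ± 0.05) and Umod (-0.21 ± 0.05) lower. The NZO/HlLtJ counts of segment markers are read against the 3.62% of all genes called for diet there. In NZO/HlLtJ, then, Slc2a2 and Slc5a10 rose in the same libraries in which some segment markers moved, and the part of these markers in the result was not tested. The mitochondrial share of counts separated the diets in the males, from 13.1 to 13.8% to 14.4 to 15.5% in C57BL/6J, from 10.7 to 12% to 12.2 to 14.3% in NZO/HlLtJ and from 13.3 to 14.1% to 11.1 to 12.6% in CAST/EiJ, and overlapped in the females of each strain. Its part in the diet results was not tested.

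Podocyte markers were higher in females, with sums of 392 to 431 CPM against 279 to 345 CPM in C57BL/6J, 423 to 459 against 277 to 345 in CAST/EiJ and 417 to 453 against 263 to 330 in NZO/HlLtJ, and 3 of 3 were called in each strain. Loop and distal markers were called higher in females for 5 of 6 in each strain, where 47.6 to 49.9% of all genes were called in either direction. Their part in the female excess of the members was not tested. In the strain comparisons the 3 smooth muscle markers were lower in NZO/HlLtJ than in both other strains (Myh11 by log2 -0.76 and -0.93). Of all genes 36.9% were called for NZO/HlLtJ against C57BL/6J and 59.1% against CAST/EiJ. Of the 4 macrophage markers, Csf1r was higher in CAST/EiJ than in C57BL/6J (0.85 ± 0.07) and Adgre1 (-2.22 ± 0.21) and Ptprc (-0.81 ± 0.18) were lower. In that contrast 60% of all genes were called. The 5 adipocyte markers summed to 0.128 to 21.6 CPM with a median of 4.48 CPM, low and uneven between libraries. Lep was at 0 in 11 of 47 libraries and Adipoq and Cfd each in 1. Of these 5 none was called for diet (0 with an unadjusted p under 0.05 in edgeR in each strain, and 0 by DESeq2 in CAST/EiJ and NZO/HlLtJ, while in C57BL/6J DESeq2 gave none of them an adjusted p). Cfd, Cidec, Plin1 and Adipoq were lower in NZO/HlLtJ than in CAST/EiJ. Skeletal muscle was represented by Mylpf alone, at 0.0987 to 0.758 CPM.

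Slc5a2 and Slc5a10 share exon sequence with genes on the opposite strand, and the labels do not state whether counting used the strand. Slc5a2 overlaps BC017158 over 597 bases, 20.6% of its merged exons, and Slc5a10 overlaps Fam83g over 393 bases, 16.6%. In these members 100% of the deposited values were not whole numbers, against 0% in the other 8. BC017158 had group means of 22.1 to 27.4 CPM and Fam83g of 16.2 to 26.5 CPM, far below the members, and neither was called for diet in any strain. Fam83g was higher in females in C57BL/6J (0.40, adjusted p 0.000139) and CAST/EiJ (0.27, adjusted p 0.0111), and both genes were called between CAST/EiJ and each other strain, so sex and strain values of Slc5a10 and Slc5a2 carry this uncertainty.

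The genes most like each member in pattern were sought among 11663 genes (11661 for Slc5a10) by the correlation (Pearson's r) of 12 group means of log2 CPM. As groups share strains, sexes and diets, r is a description. Slc5a1 was closest to Lpcat1 (r = 0.987) and Rusc2 (0.979), Slc5a8 to Cyp2d9 (0.984) and Htt (0.984), and Slc5a11 to Slc23a3 (0.977) and Cln3 (0.975). Slc5a10 was closest to Glud1 (0.93), the glutamate dehydrogenase of ammonia production, and Acot8 (0.926). Slc5a12 was closest to Hnrnpdl (0.954) and Mcm8 (0.941), and Slc5a2, the member that varied least, to Casc3 (0.873) and Klhl12 (0.86). Of the facilitative carriers, Slc2a2 had a close pattern in Mcam (0.939), and Slc2a1 was closest to Prdm11 (0.953) and Armcx4 (0.941). Slc2a4 was closest to the urea carrier Slc14a1 (0.992) and Farp1 (0.986), and Slc2a9 to Cxcl12 (0.996) and Knop1 (0.992). Among the members themselves, Slc5a1 and Slc2a4 had the most similar pattern (r = 0.913) and Slc5a8 and Slc2a1 the most opposed (r = -0.779), while Slc2a2 and Slc2a9 also ran against each other (r = -0.772).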

How the data were processed

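The 47 RNA-seq libraries of mouse kidney were analysed from the expected counts per gene that the authors deposited. Of these values 21.0% were not whole, and they were rounded. The submitters' processing notes name GRCm38 and DESeq2; the aligner and counter are not given in the sources used here. The authors' variance-stabilized table, in log2 units as deposited, was not used. Each of the count columns matched 1 sample. Genes were filtered with filterByExpr over 12 groups (18786 kept, 3688 set aside), scaled by TMM and fitted with edgeR 4.0.16 (limma 3.58.1, R 4.3.3), using a robust quasi-likelihood model of group and of the run of sample ID numbers (77, 81 or 89) with 33 residual degrees of freedom. Tests of 18 contrasts were two-sided, with Benjamini-Hochberg adjustment over all genes and a threshold of 0.05. The ID runs are taken from the sample names, and what they stand for is not stated. Gene coordinates come from the deposited annotation, merged exon lengths from GENCODE M21 and promoters from RefSeq.

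Alternatives were DESeq2 size factors within edgeR, no filter, no run term, only the strains compared, DESeq2 1.42.0 (Wald test) and each library left out. In a test on simulated data for the NZO/HlLtJ diet effect over 18635 genes, the fit recovered 76% of the genes given a 1.25-fold change, and 94% at 1.5-fold. Each change was given to 50 genes with an average log2 CPM of at least 1. Counts were drawn from a negative binomial model with the fitted spreads, so the recovery holds for such counts. Of the genes called, 4.69% had been given no change. The members and gene lists were chosen with earlier results of these data known. All members are named, from each other list up to 4 genes with the smallest adjusted p in the contrast described, and for likeness the 2 genes with the highest r among those with an average log2 CPM of at least 1. Some genes and 1 promoter motif that these rules name are not reported here.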

Additional observations from a re-analysis of the deposited data

Results flagged for a closer look

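In 7 of the 110 sets of 4 libraries tested, 1 library lay far from the other 3 of its group, where chance gives about 1 in 20, or 5.5. Slc5a2 was at 554 CPM in CAST/EiJ female 10% fat replicate 3, with the others at 450 to 464 CPM. Slc5a10 was at 263 CPM in C57BL/6J female 10% fat replicate 2 (others 218 to 225), at 509 CPM in CAST/EiJ female 44% fat replicate 4 (others 378 to 400) and at 360 CPM in CAST/EiJ male 44% fat replicate 3 (others 420 to 424). Slc5a11 was at 67.6 CPM in NZO/HlLtJ female 44% fat replicate 2 (others 65.5 to 65.6), a small distance in a tight group. Slc2a1 was at 39.7 CPM in C57BL/6J female 44% fat replicate 1 (others 54.2 to 56.8), and Slc2a2 at 323 CPM in NZO/HlLtJ male 44% fat replicate 4 (others 303 to 305).

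The effect of diet differed between NZO/HlLtJ and CAST/EiJ by log2 values of 0.34 for Slc5a2, 0.45 for Slc5a8 and 0.62 for Slc2a2. The sex difference, females minus males, differed between NZO/HlLtJ and C57BL/6J by -0.43 for Slc5a10 and -0.26 for Slc5a11. It differed between NZO/HlLtJ and CAST/EiJ by 0.35 for Slc2a1 and -0.37 for Slc2a2, and between CAST/EiJ and C57BL/6J by -0.30 for Slc5a8, -0.42 for Slc5a10 and -0.33 for Slc2a1. Each of these passed edgeR's test of the difference itself.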

How the results depend on the processing

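Of 90 counts of called members under the alternatives 80 stayed within 1.5 times the count reported, as did 331 of 375 counts with 1 library left out, and no called value changed direction. Contrasts with a reported count of 0 are included in these totals, and a 0 that stayed 0 is counted as within. The C57BL/6J diet count of 1 was 0 without the filter, without the run term and with that strain alone, and 0 to 1 with 1 library left out. The CAST/EiJ diet count of 3 was 1 with that strain alone and 1 to 3 with 1 library left out, and that of NZO/HlLtJ was 2 to 4. For the diet difference of CAST/EiJ and C57BL/6J, DESeq2 called 1 where edgeR called 0, and that of NZO/HlLtJ and CAST/EiJ, 3 members, was 2 with those strains alone, 4 by DESeq2 and 3 to 4 with 1 library left out. The difference in sex effect of NZO/HlLtJ and C57BL/6J, 2 members, was 1 with DESeq2 size factors, without the filter, without the run term and with those strains alone, and 0 to 2 with 1 library left out. That of CAST/EiJ and C57BL/6J, 3 members, was 1 without the filter and 1 to 4 with 1 library left out, and that of NZO/HlLtJ and CAST/EiJ was 1 to 3. The sex counts were 7 to 8 in C57BL/6J and 6 to 8 in NZO/HlLtJ, and the strain counts 4 to 8 for NZO/HlLtJ and 8 to 9 for CAST/EiJ, each against C57BL/6J. The cause was not tested. No paired analysis was possible because the replicate numbers are only names given in accession order and pair no samples. The run of ID numbers was instead a term of the model.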
